A study of Mus musculus with 29 samples.

Results

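A set of 40 genes of the extracellular matrix, called members below, was measured by RNA sequencing of 2 tissues, liver and the whole hindlimb muscle, in 16 C57BL/6 males. They were taken by name from a list of collagens, basement membrane proteins, matrix glycoproteins, proteoglycans, crosslinking enzymes and matrix proteases, and all 40 are among the 38124 genes of the deposited tables. The animals, bought at 14 weeks of age, entered 4 diet groups at an age of 4 months. Controls were given 13.6 kcal/day, 95% of free intake, while mice of the soy, fish and lard groups, named after the fat in the diet, were held at 8.6 kcal/day, or 60%. In liver the libraries were 3 of control and 4 of each restricted diet; in muscle there were 4 of control, 3 of soy, 3 of fish and 4 of lard, each from 1 mouse. The series title names the question of how far omega-3 fatty acids, the characteristic lipids of fish oil, undo the expression profile of calorie restriction, and the comparisons below take each restricted diet against control and the 3 fats against each other.

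The extracellular matrix is the network of secreted proteins that surrounds cells. Fibrillar collagens give it tensile strength, basement membranes line epithelia, vessels and muscle fibres, and small proteoglycans and matricellular proteins tune the assembly of fibrils and the contact of cells with them. Collagen chains are folded with a dedicated chaperone in the endoplasmic reticulum, crosslinked outside the cell by lysyl oxidases and cut by matrix metalloproteinases, which tissue inhibitors hold in check. In liver most fibrillar collagen is made by stellate cells and portal fibroblasts, while hepatocytes secrete plasma fibronectin. In muscle it is made by fibroblasts of the connective tissue sheaths.

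Several libraries stood apart, and results that rest on them are given with and without them. The livers of soy mice 1073 and 1159 had 5.47% and 5.41% of their gene reads outside exons, against 7.91% to 8.92% in the other 13 livers. Fish liver 1123 held 3109 CPM (exon reads scaled to a fixed library total) of 8 skeletal muscle markers, against 155 to 332 CPM in the other 14 livers. Control muscles 1071 and 1120 held 24.0 and 92.2 CPM of 10 bone and cartilage markers, against 0.664 to 3.5 CPM in the other 12 muscles, and 276 and 1169 CPM of 8 neutrophil and marrow markers against 0.183 to 2.62 CPM. None of 8 hepatocyte markers in liver and none of 8 skeletal muscle markers in muscle was under 1 CPM in every library, and depth was 11315231 to 27106865 exon reads per library. In a whole tissue, fewer cells of a type and less RNA per cell cannot be told apart.

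The levels of the members differed between the 2 tissues. Levels between genes are compared as RPKM, the authors' reads per kilobase of exon scaled to the library. In liver the highest 3 members over all 15 libraries were Fn1 (fibronectin) at 160.2 ± 41.0 RPKM (SD), Col18a1 (the collagen of vessel and epithelial basement membranes from which endostatin is cut) at 98.5 ± 16.1 and Dcn (decorin, a proteoglycan that binds collagen fibrils) at 90.7 ± 13.1. In muscle they were Dcn at 229 ± 65.0 RPKM, Sparc (a collagen-binding matricellular protein) at 80.6 ± 33.1 and Timp2 (an inhibitor of metalloproteinases) at 27.4 ± 7.30 over 14 libraries. In control muscles alone Bgn (34.6 ± 10.2), Timp2 (33.0 ± 2.26) and Col1a2 (32.2 ± 14.6) lay within their SD of each other in the third place. Lox, the founding lysyl oxidase, and Timp1, an inhibitor raised in injured tissue, were near the floor in liver, at no more than 1.31 and 0.269 CPM in any library, and neither passed the filter on low counts there. In muscle only Timp1 failed it, at 0.0601 to 1.77 CPM, so that 38 of the 40 members were tested in liver and 39 in muscle.

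Between control muscle and control liver, 33 of 39 members were higher in muscle, 5 were lower and 1, Bgn, did not pass (-0.34 ± 0.24 on the log2 scale, adjusted p = 0.209). Over all 14150 genes tested, 73.6% passed in this comparison, 38.0% higher in muscle and 35.5% lower, against 84.6% and 12.8% of members. Passing means throughout that edgeR's quasi-likelihood test gave an adjusted p (Benjamini-Hochberg) under 0.05, and differences are log2 ± SE. The 5 members higher in liver were Col18a1 (-5.95 ± 0.39), Fn1 (-3.82 ± 0.36), Col14a1 (-1.94 ± 0.36), a collagen on the surface of fibrils, Col5a3 (-1.15 ± 0.33), a minor fibrillar chain, and Mmp14 (-0.93 ± 0.20), a membrane-bound metalloproteinase. Control livers had 865.7, 890.2 and 913 CPM of Col18a1 and control muscles 8.85 to 21.0 CPM. At the other end stood Fmod (fibromodulin, a tendon proteoglycan; 5.96 ± 0.98), Lox (5.90 ± 0.62) and Col1a1 (the main chain of type I collagen; 4.41 ± 0.59). Without control muscles 1071 and 1120 (and fish liver 1123) Fmod was at 3.90 and Col1a1 at 3.48, and Lox at 6.27. The call of Postn in this comparison (0.93 ± 0.30, adjusted p = 0.00775) was lost without control muscle 1120 (0.50, adjusted p = 0.0863), and the number of members that passed was 37 to 38 on leaving out each control library. Without control muscles 1071 and 1120 (and fish liver 1123) the calls of Postn (0.41, adjusted p = 0.204) and Tnc (1.39, adjusted p = 0.0647) were both lost.

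**Figure D1:**
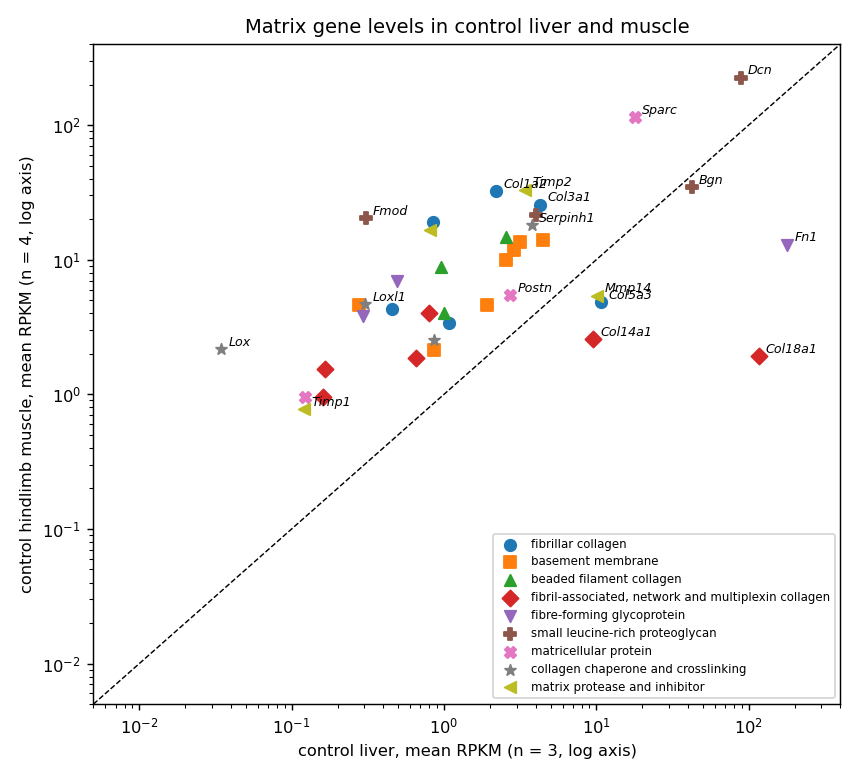
Mean RPKM of the 40 members in control liver (horizontal axis, n = 3) and control hindlimb muscle (vertical axis, n = 4), both on log axes, with the symbol giving the role of each gene and the dashed line marking equal levels. Most points lie above the line, and the members that passed as higher in liver, Fn1, Col18a1, Col14a1, Col5a3 and Mmp14, lie below it.

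Chains that assemble into one protein were not at equal RPKM. Col1a1, of which type I collagen normally holds more chains than of Col1a2, was below Col1a2 in all 29 libraries: the ratio of their RPKM had a median of 0.321 in liver (0.222 to 0.423) and 0.431 in muscle (0.323 to 0.7099). Col6a1 was above Col6a2 and Col6a3, its partners in the beaded filaments around muscle fibres, in every library, with a median ratio to Col6a2 of 2.89 in liver and 1.96 in muscle. Col5a2 was below Col5a1 in all 15 livers (median ratio 0.4934) and above it in 12 of 14 muscles (1.23). The basement membrane pair Col4a2 and Col4a1 had a median ratio of 0.714 in liver and 0.832 in muscle. These 2 genes are read in opposite directions from start sites 21 bases apart on chromosome 8, and their exons overlap there. Of the exon reads of Col4a1 76.2% were unique, and of those of Col4a2 98.9%. The part of the overlap in these shares was not tested. RPKM of different genes also differ with the exon model and with how reads spread along a transcript, which was not tested.

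Calorie restriction was compared with control in liver. Of 38 members 1 passed, in the restricted diets together and in each diet alone, and it was higher: Postn, which encodes periostin, a matricellular protein made by activated fibroblasts that helps collagen crosslinking. Over all 12788 genes tested 1.08% passed for the 3 diets together, 1.17% for soy, 0.383% for fish and 0.508% for lard. Postn (ENSMUSG00000027750, chromosome 3, 54361109 to 54391034, plus strand) was at 8.72, 9.75 and 10.6 CPM in the control livers. The soy livers had 12.7, 13.4, 14.6 and 14.9 CPM, the fish livers 14.5, 16.0, 17.8 and 22.8 CPM, and the lard livers 15.3, 15.9, 16.1 and 16.4 CPM. Every restricted liver was above every control liver, and fish liver 1123 (22.8 CPM) was the highest. Postn was the 1 of 38 members without overlap on the higher side (2.63%, against 0.626% of all genes).

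Over the 3 restricted diets Postn rose by 0.77 ± 0.13 (adjusted p = 0.0071), a fold of 1.70. It rose by 0.67 ± 0.15 in soy (adjusted p = 0.0394), 0.82 ± 0.15 in fish (adjusted p = 0.0225) and 0.80 ± 0.15 in lard (adjusted p = 0.0236). The 3 diet comparisons share the same 3 control livers. The call for the diets together held in 13 of 15 removals of 1 library and was lost without control liver 1095 (adjusted p = 0.0553) or 1120 (adjusted p = 0.053). With the library number of the labels as an added term the diets together still passed (adjusted p = 0.0388), and soy, fish and lard did not (adjusted p = 0.0785, 0.0951 and 0.0716). The single diet calls held in 2 of 7 removals for soy, 2 of 7 for fish and 1 of 7 for lard, with the log2 difference between 0.55 and 0.90. Fish liver 1123, with the most skeletal muscle markers and the highest Postn, left the fish difference at 0.69 when removed (adjusted p = 0.072) and that of the 3 diets at 0.72 (adjusted p = 0.00682). The 10 hepatic stellate markers summed to 317 to 422 CPM in control and 284 to 419 CPM in restricted livers. Markers of the mesothelium, the cell layer that covers the organ (5 genes, 2 of them under 1 CPM in every liver), summed to 1.42 to 2.95 CPM in control, 3.67 to 9.67 in soy, 4.43 to 7.95 in fish and 1.77 to 6.81 in lard livers, with a median log2 difference of 1.24 and none passing. The 8 skeletal muscle markers had a median of 1.07 with fish liver 1123 included, and none passed. The part of cell makeup in the Postn result was not tested.

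The region around the Postn start site is shown because this was the member that passed in liver. It runs from 250 bases before to 50 after the RefSeq start on the GRCm38.p6 build, chr3:54360857-54361156, plus strand, and the capitals mark TATAAA, the TATA box letters, 26 bases before the start.

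Postn: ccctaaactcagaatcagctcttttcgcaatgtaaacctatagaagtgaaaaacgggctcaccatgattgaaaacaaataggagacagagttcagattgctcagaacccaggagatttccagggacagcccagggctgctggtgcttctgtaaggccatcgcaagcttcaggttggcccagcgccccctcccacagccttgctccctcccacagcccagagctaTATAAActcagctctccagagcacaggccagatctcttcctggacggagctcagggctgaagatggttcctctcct

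TATAAA, searched on both strands, was in 13.6% of the 32851 RefSeq windows of this length and in 4 of the 30 windows found for 26 of the 40 members. CCAAT was in 37.4% of all windows and 13 of the 30, and GGGCGG, the GC box letters, in 35.7% and 21 of the 30. GAANNTTC, the paired letters of a heat shock element, was in 7.86% of all windows and 1 of the 30. A match to letters is a description of the window and not a bound site.

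**Figure D2:**
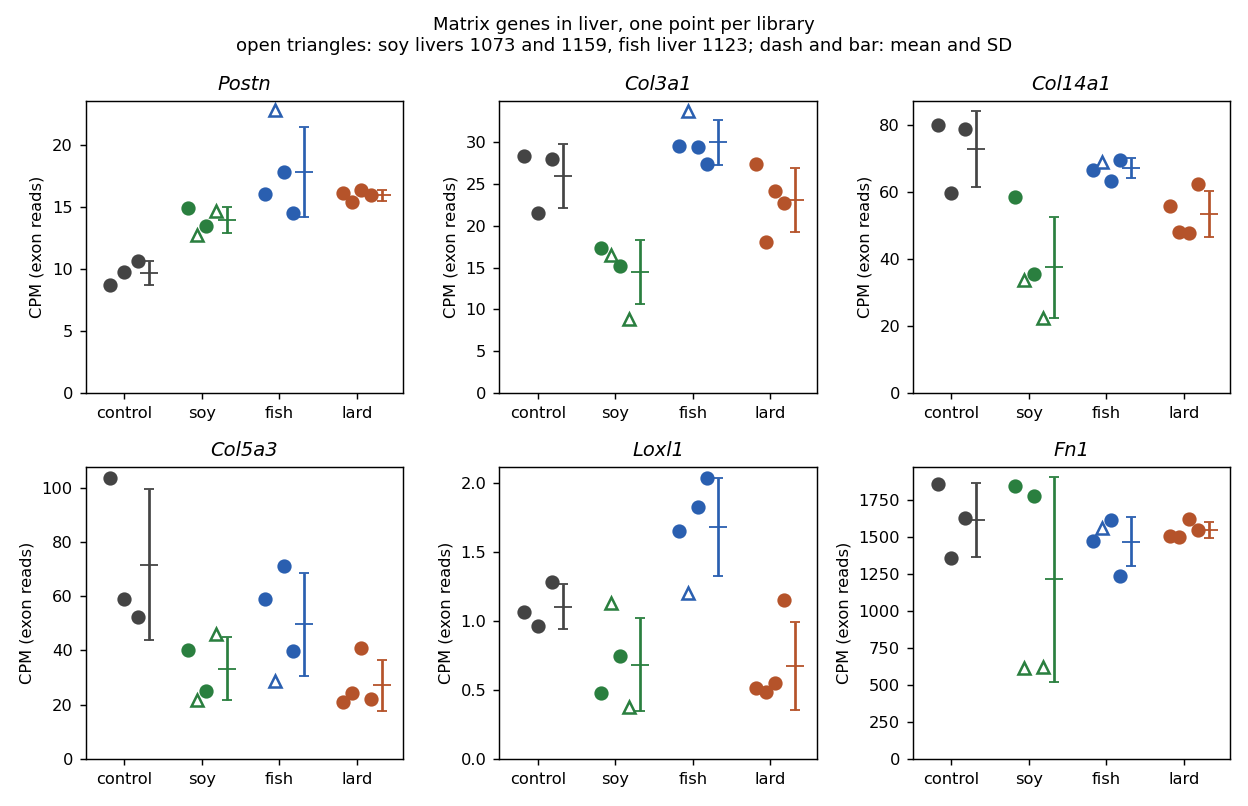
CPM of 6 members in every liver library by diet, each panel starting at 0, with dash and bar for mean and SD and open triangles for soy livers 1073 and 1159 and fish liver 1123. Postn is higher in every restricted liver than in the 3 controls, Col3a1 and Col14a1 are lowest in soy livers, and Fn1 is at 614 and 618 CPM in the 2 soy livers marked and at 1233 CPM or more in the others.

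Among the collagens of liver no member passed against control, and values lay mostly below control on the soy and lard diets. For soy minus control 30 of 38 members were below 0, against 49.6% of all genes, with a median of -0.37, and 13 were lower at an unadjusted p under 0.05 (34.2% against 9.27% of genes). All 6 fibrillar collagens were below 0 with a median of -0.62, from Col5a2 at -0.46 to Col1a1 at -0.97. Col14a1 was at 58.4, 33.6, 35.5 and 22.5 CPM in soy livers against 79.8, 59.8 and 78.8 in control, a difference of -0.82 ± 0.21 (adjusted p = 0.0582) with no overlap. Soy livers were all below control livers for 10 of 38 members (26.3%) and 11.3% of all genes. Col3a1, the chain of type III collagen that is abundant in the reticular fibres of liver, was at 17.4, 16.4, 15.2 and 8.91 CPM in soy and 28.4, 21.5 and 27.9 in control (-0.69 ± 0.18, adjusted p = 0.0683). Of the 4 small proteoglycans Dcn (0.16), Lum (0.11) and Fmod (0.64) were above 0 and Bgn (-0.21) below, and Timp2 was at 0.10; none passed, and no difference between these groups was tested.

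The low soy values were largest in the 2 soy livers that stood apart, and in members with long transcripts. The 40 members summed to 1681 and 1617 CPM in soy livers 1073 and 1159 and to 2738 to 3576 CPM in the other 13 livers. Fn1 made most of that gap, at 614 and 618 CPM against 1233 to 1859 CPM. Relative to each gene's liver median, the 20 members with at least the median exon length of 5563 bases had a median of -0.83 and -1.03 on the log2 scale in these 2 livers, and the 18 shorter ones -0.16 and -0.61. In the other 13 livers neither median was below -0.25. Without both livers the soy minus control median was -0.11, with 25 of 38 members below 0, and Postn was at 0.61 (adjusted p = 0.121). The part of exon length in the soy values was not tested.

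On the fish diet no collagen of liver passed against control. The fibrillar collagens ran from -0.56 (Col5a3) to 0.32 (Col5a2), and the fibril-surface and network collagens had a median of -0.20 with 4 of 6 below 0. The median of all members for fish minus control was 0.11, with 26 of 38 members above 0 (52.3% of all genes). Col3a1 was at 29.5, 33.7, 29.4 and 27.3 CPM in fish livers and 0.17 above control, and Col15a1, a basement membrane zone collagen, was at 2.54, 5.27, 3.33 and 2.40 CPM against 4.68, 5.56 and 5.45 in control (-0.68 ± 0.28, adjusted p = 0.464). Fmod was at 0.990 to 2.48 CPM in fish and 0.850 to 1.30 CPM in control (0.73 ± 0.34, adjusted p = 0.570). On lard the median was -0.15, with 27 of 38 members below 0 (49.2% of all genes), among them all 6 fibrillar collagens. There Col5a3 was at 21.0, 24.3, 41.0 and 22.3 CPM against 104, 59.1 and 52.4 in control (-1.29 ± 0.34, adjusted p = 0.121), and Mmp2, a gelatinase, at 1.22 to 2.12 CPM against 2.34 to 3.27 (-0.54 ± 0.27, adjusted p = 0.537). Over the 3 restricted diets 28 of 38 members were below 0 (47.8% of all genes). There Col5a3 was at -0.93 ± 0.27 (adjusted p = 0.144) and Col14a1 at -0.44 ± 0.17 (adjusted p = 0.299). The other members besides Postn lay between -0.60 (Col8a1, a short-chain network collagen) and 0.63 (Fmod).

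The fat sources were then compared with each other in restricted livers. For fish minus soy no member passed, against 0.0938% of all genes. Of 38 members 34 were above 0 (51.8% of all genes), with a median of 0.42 (0.02 for all genes), and 16 were at an unadjusted p under 0.05 on the higher side, 42.1% of members against 9.31% of genes. The fibrillar collagens had a median of 0.69 and the basement membrane members 0.49, while the small proteoglycans were at 0.04. Col3a1 had the smallest p (0.86 ± 0.17, adjusted p = 0.0729), with 27.3 to 33.7 CPM in fish and 8.91 to 17.4 CPM in soy livers. Col5a2 was at 4.20, 4.62, 4.77 and 3.49 CPM in fish and 2.48, 1.45, 3.06 and 1.87 in soy (0.77 ± 0.20, adjusted p = 0.107), and Col6a3 at 11.2 to 13.1 CPM against 3.30 to 9.63 (0.75 ± 0.20, adjusted p = 0.107). Fish livers were all above soy livers for each of these, as for 17 of 38 members (44.7%) and 9.34% of all genes.

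This comparison moved with single soy libraries. Without soy livers 1073 and 1159 the median was 0.22, with 9 of 38 members below 0 and 7 at an unadjusted p under 0.05, of which 1, Fn1, was on the lower side (-0.41 ± 0.11). Col3a1 was then at 0.77 ± 0.16 (adjusted p = 0.193), and no gene of any kind passed. By contrast 9 members passed without soy liver 1065 (16.4% of all genes) and 7 without soy liver 1141 (10.4% of all genes), which leave the 2 livers that stood apart as most of the soy group. The DESeq2 Wald test called 4 members and 6.36% of all genes. Long members had a median of 0.52 and short ones 0.19 with all soy livers, and 0.27 and 0.19 without the 2.

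Lard livers were then set against soy and fish livers. For lard minus soy no member passed, nor did any gene (0.0%). The median was 0.22, 4 members were higher at an unadjusted p under 0.05 (10.5% against 6.08% of genes), and Col3a1 (0.63 ± 0.17), Col14a1 (0.47 ± 0.19) and Col15a1 (0.57 ± 0.26) had the smallest p, all at adjusted p of 0.229 to 0.276. This tilt rested on soy livers 1073 and 1159. Without them the 20 long members had a median of -0.03 (0.30 with all livers), with 11 below 0. The 18 short ones had a median of 0.0002 (0.03 with all livers), with 9 below 0. At an unadjusted p under 0.05 there were then 1 long member and 0 short ones. For fish minus lard no member passed against 0.203% of genes, and 4 members were on the higher side at an unadjusted p under 0.05, 10.5% against 5.58% of genes. Of 38 members 32 were above 0 (84.2%, against 51.3% of all genes), with a median of 0.24 (0.006 for all genes). Loxl1, a lysyl oxidase of elastic fibres, was at 1.65, 1.20, 1.83 and 2.03 CPM in fish and 0.517, 0.484, 0.550 and 1.15 in lard (1.23 ± 0.36, adjusted p = 0.226). Mmp2 was at 2.94 to 3.30 CPM in fish and 1.22 to 2.12 in lard (0.73 ± 0.25, adjusted p = 0.323). Fish livers were all above lard livers for both, as for 14 of 38 members (36.8%) and 12.6% of all genes. Of the 6 members below 0, Col15a1 was the one at an unadjusted p under 0.05 (-0.92 ± 0.26, adjusted p = 0.201). It had 8.84 CPM in lard liver 1130 against 4.56 to 5.22 in the other lard livers. Over 7 alternatives, leaving out fish liver 1123 among them, Loxl1 was at 1.23 to 1.38 and Mmp2 at 0.73 to 0.74, and neither passed. Col15a1 was at -1.20 to -0.92 and passed in 1 of the 7. Fibroblast markers, 10 genes, summed to 52.1 to 95.9 CPM in fish, 40.5 to 52.9 in lard and 42.5 to 74.3 in soy livers. The highest sum was that of fish liver 1123, and the other 14 livers had 40.5 to 77.9 CPM. The part of these markers in the differences was not tested.

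In muscle the matrix members lay below control on all 3 restricted diets. Of 39 members tested 35 were below 0 for the 3 diets together, against 52.0% of all genes, with a median of -0.60 (-0.02 for all genes). Of these 3 fell: Serpinh1, Loxl1 and Col16a1. They are 7.69% of members, against 2.33% of the 13104 genes tested that passed on the lower side and 3.49% in either direction. At an unadjusted p under 0.05, 21 members were lower and 0 higher, 53.8% of members against 15.5% of genes. The members summed to 2452 to 3072 CPM in control muscles and 1252 to 3439 CPM in restricted ones, where all but soy muscle 1073 (3439) and fish muscle 1067 (2553) were below every control.

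Serpinh1 acts on collagen chains inside the cell and Loxl1 on elastic fibres outside it. Serpinh1 (ENSMUSG00000070436, chromosome 7, 99345375 to 99353230, minus strand) encodes HSP47, the collagen chaperone of the endoplasmic reticulum. It was at 46.3, 33.7, 57.9 and 48.1 CPM in control muscles, 26.4, 42.2 and 23.1 in soy, 35.1, 26.6 and 25.2 in fish and 28.7, 23.5, 22.0 and 26.6 in lard. Only soy muscle 1073 and fish muscle 1067 reached into the control range, and Serpinh1 fell by 0.73 ± 0.14 (adjusted p = 0.0351). Loxl1 (ENSMUSG00000032334, chromosome 9, 58287723 to 58313212, minus strand) was at 16.9, 16.6, 17.4 and 15.1 CPM in control, 7.63, 14.7 and 6.61 in soy, 10.5, 10.7 and 9.78 in fish and 11.99, 7.28, 5.89 and 7.52 in lard. No restricted muscle reached the lowest control, and Loxl1 fell by 0.84 ± 0.17 (adjusted p = 0.0351).

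Col16a1 (ENSMUSG00000040690, chromosome 4, 130047840 to 130099283, plus strand), a collagen that links fibrils to other matrix networks, fell by 1.13 ± 0.27 (adjusted p = 0.0452). Its control muscles spread widely, at 11.97, 5.23, 18.4 and 8.25 CPM, against 5.07, 9.22 and 5.20 in soy, 5.77, 4.15 and 5.25 in fish and 4.32, 2.32, 2.76 and 6.18 in lard. The 2 highest values, 11.97 and 18.4, are those of control muscles 1071 and 1120, and the groups overlap. The exon reads of Serpinh1, Loxl1 and Col16a1 were all unique. The start site windows of Serpinh1 (chr7:99353190-99353489, minus strand) and Col16a1 (chr4:130047590-130047889, plus strand), from RefSeq on GRCm38.p6, are shown because these members fell together in muscle. Capitals mark CCAAT and GGGCGG on either strand.

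Serpinh1: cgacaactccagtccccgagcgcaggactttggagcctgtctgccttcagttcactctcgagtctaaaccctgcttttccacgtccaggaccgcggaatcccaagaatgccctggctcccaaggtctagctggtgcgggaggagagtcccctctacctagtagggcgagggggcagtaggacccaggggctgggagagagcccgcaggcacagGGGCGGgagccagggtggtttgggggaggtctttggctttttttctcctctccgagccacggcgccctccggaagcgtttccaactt

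Col16a1: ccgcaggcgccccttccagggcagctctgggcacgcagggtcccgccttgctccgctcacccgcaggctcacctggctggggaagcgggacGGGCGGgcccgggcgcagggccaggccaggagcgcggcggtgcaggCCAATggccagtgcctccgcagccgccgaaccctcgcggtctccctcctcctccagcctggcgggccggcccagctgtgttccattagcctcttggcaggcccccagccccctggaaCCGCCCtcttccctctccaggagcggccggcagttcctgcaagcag

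Serpinh1 holds GGGCGG once, beginning 37 bases before the start, and neither CCAAT nor GAANNTTC. Col16a1 holds CCAAT 113 bases before the start, GGGCGG at 159 bases before it, and GGGCGG on the other strand just after it.

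**Figure D3:**
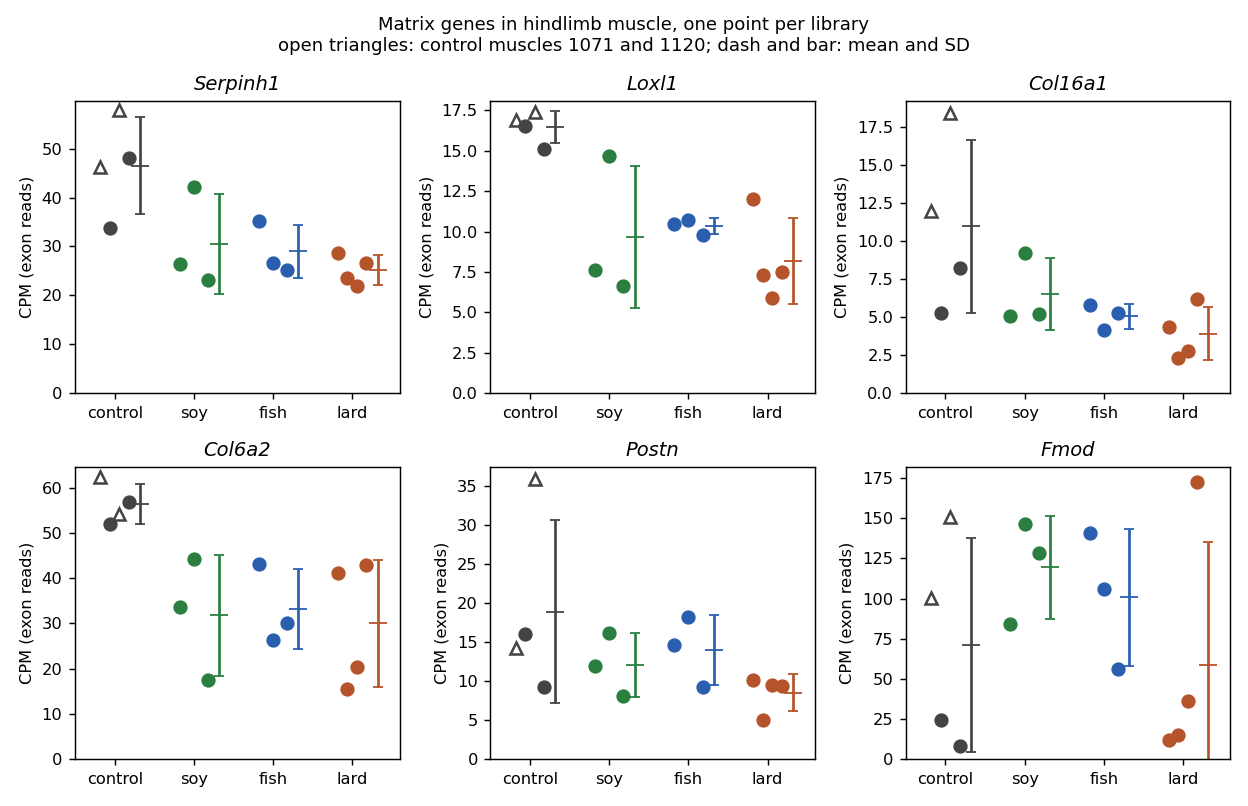
CPM of 6 members in every muscle library by diet, each panel starting at 0 (an SD bar reaching below 0 is clipped there), with dash and bar for mean and SD and open triangles for control muscles 1071 and 1120. Loxl1 and Col6a2 show no overlap between control and restricted muscles, Col16a1 and Postn are highest in control muscle 1120, and Fmod spreads from 7.90 to 173 CPM.

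The other members of muscle are given by role. All 6 fibrillar collagens were below 0, with a median of -0.75: Col5a3 was nearest to passing (-0.80 ± 0.21, adjusted p = 0.0516), and Col1a1 was at -1.19 ± 0.44 (adjusted p = 0.114). Without control muscles 1071 and 1120 Col1a1 was at -0.24 and Col1a2 moved from -0.70 to -0.19. The 3 chains of type VI collagen, the beaded filament around muscle fibres, were at -0.46 to -0.86. Of these Col6a2 was at 52.0 to 62.4 CPM in control and 15.4 to 44.2 CPM in restricted muscles, with no overlap (-0.86 ± 0.24, adjusted p = 0.0611). Col6a2 and Loxl1 were the only 2 of 39 members whose restricted muscles all lay below all control muscles, 5.13% against 0.488% of genes. Sparc (-0.77 ± 0.21, adjusted p = 0.0574) and Bgn, the proteoglycan biglycan (-0.81 ± 0.22, adjusted p = 0.0576), were also just above the threshold.

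With all libraries the basement membrane members lay in 2 ranges. The type IV chains Col4a1 and Col4a2, the collagen sheet of every basement membrane, were at -0.57 and -0.63 (adjusted p = 0.0969 and 0.0827). The laminin chains Lama2, Lamb1 and Lamc1, which form the laminin of the muscle fibre surface, and the linkers Nid1 and Nid2 (nidogens) were between -0.10 and 0.03. The gap narrowed without control muscles 1071 and 1120, where Nid1 was at -0.63, Lama2 at -0.40, Lamc1 at -0.36, Nid2 at -0.32 and Lamb1 at -0.15, and Col4a1 and Col4a2 at -0.79 and -0.82. Elastic fibre members Fbn1 (fibrillin) and Eln (elastin) were at -0.82 and -0.70, and fibronectin at -0.60. The metalloproteinases Mmp14 and Mmp2 were at -0.58 and -0.38 and the inhibitor Timp2 at -0.40. Of the fibril-surface and network collagens besides Col16a1, Col15a1 was at -0.79, Col14a1 at -0.66, Col18a1 at -0.50, Col12a1 at -0.34 and Col8a1 at -0.12. The lysyl oxidases Loxl2, of whose reads 49.3% were unique, and Lox were at -0.37 and -0.08, and the proteoglycan Lum (lumican) at -0.33. The members above 0 were Fmod (0.32), Dcn (0.06), Lamc1 (0.03) and Nid2 (0.001).

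**Figure D4:**
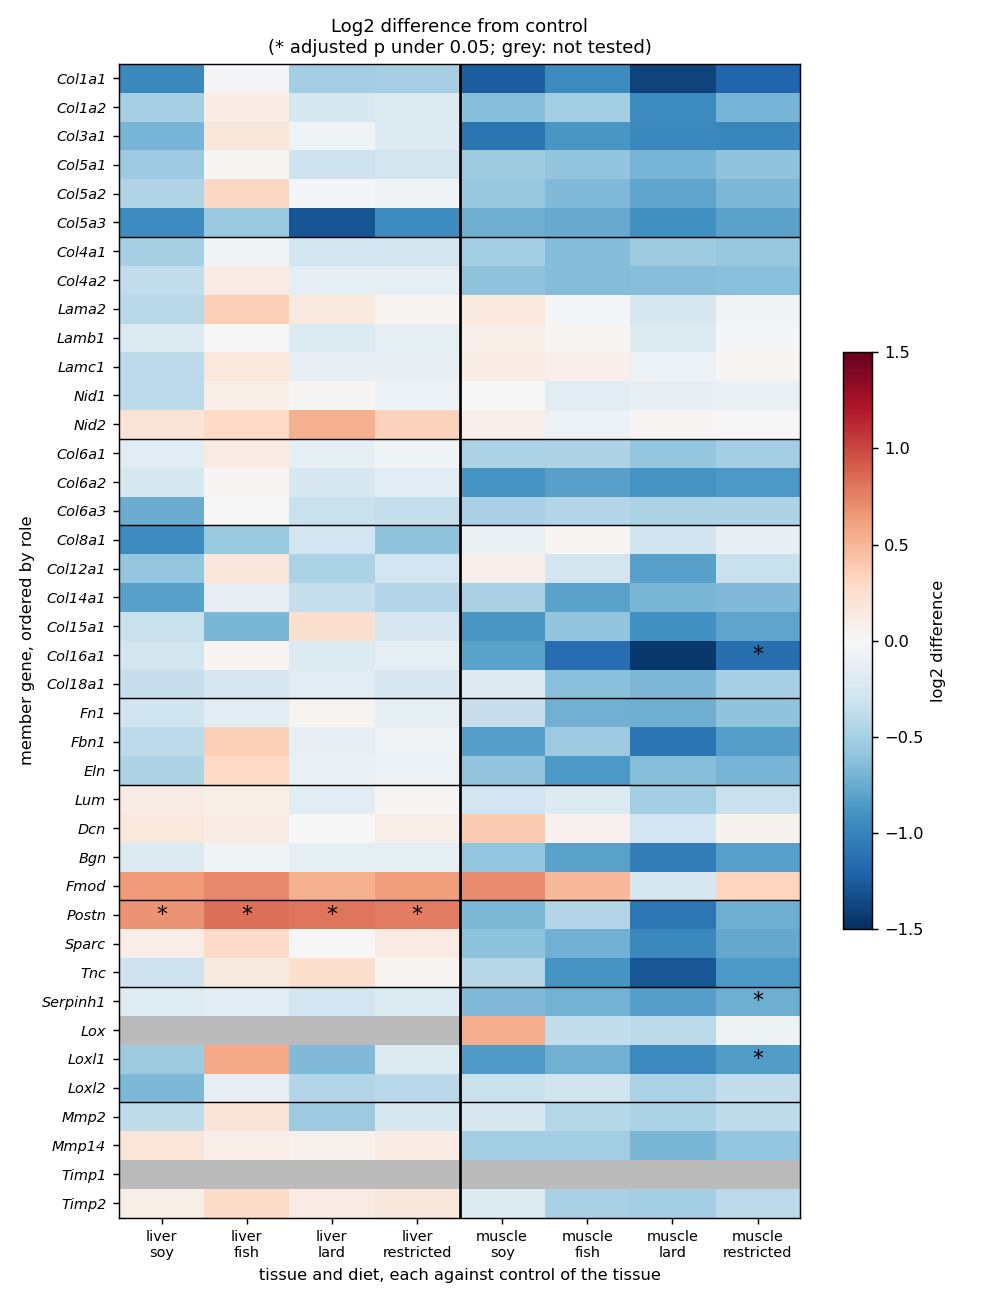
Log2 difference from control for each of the 40 members (rows, grouped by role) in each restricted diet and in the 3 diets together, for liver (left block) and muscle (right block). Blue is lower than control, red higher, grey not tested, and a star marks an adjusted p under 0.05: Postn in the 4 liver columns, and Col16a1, Serpinh1 and Loxl1 in muscle for the diets together.

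Leaving out control muscles 1071 and 1120 ended the calls and kept the direction of most members. Without them 0 of 39 members and 2 of 13207 genes passed, while 35 members were still below 0, the median was -0.50, and 20 members were lower and 1 higher at an unadjusted p under 0.05. Loxl1 was then at -0.78 ± 0.23 (adjusted p = 0.279), Serpinh1 at -0.55 ± 0.17 (adjusted p = 0.298) and Col16a1 at -0.44 ± 0.29 (adjusted p = 0.641). Col5a3 (-0.85 ± 0.16), Fbn1 (-1.39 ± 0.28) and Col4a2 (-0.82 ± 0.18) had the smallest p, at adjusted p of 0.141 to 0.183. Tnc (tenascin-C) turned from -0.87 to 0.65 and Col12a1, a fibril-surface collagen of tendon and muscle, from -0.34 to 0.70. Fmod went from 0.32 to 2.41, since its control levels were 100.4 and 151 CPM in the 2 muscles and 24.5 and 7.90 CPM in the other 2. Col1a1 was at 140.3 and 214 CPM in the 2 muscles and at 60.3 and 61.5 CPM in the other controls.

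Single removals moved the count of members that passed in muscle from 3 to between 0 and 8. No member passed without control muscle 1071, fish muscle 1123 or lard muscle 1101 or 1102, and 1 passed without control muscle 1120, fish muscle 1124 or soy muscle 1065 or 1141. On the other side 8 passed without soy muscle 1073, 7 without control muscle 1121 and 6 without control muscle 1095. Calls over all genes moved with the libraries too, from 457 with all of them to 2 without control muscles 1071 and 1120. The share of all genes that passed is not set beside these single removals. Their counts are therefore not read as a result about the members. With the library number as an added term none of the 3 passed (adjusted p = 0.0542 for each). Over the 14 removals Serpinh1 passed in 9, Loxl1 in 5 and Col16a1 in 4. DESeq2 called 11 members, all lower, and 9.67% of all genes. The 10 fibroblast markers summed to 1217 to 1883 CPM in control and 748 to 2262 CPM in restricted muscles. In muscle 2 of these 10 markers fell by the edgeR test, with a list median of -0.50, beside 2.33% of all genes that passed on the lower side. Dpt, 1 of the 2, is also counted in a companion list below. The part of these markers in the matrix result was not tested.

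**Figure D5:**
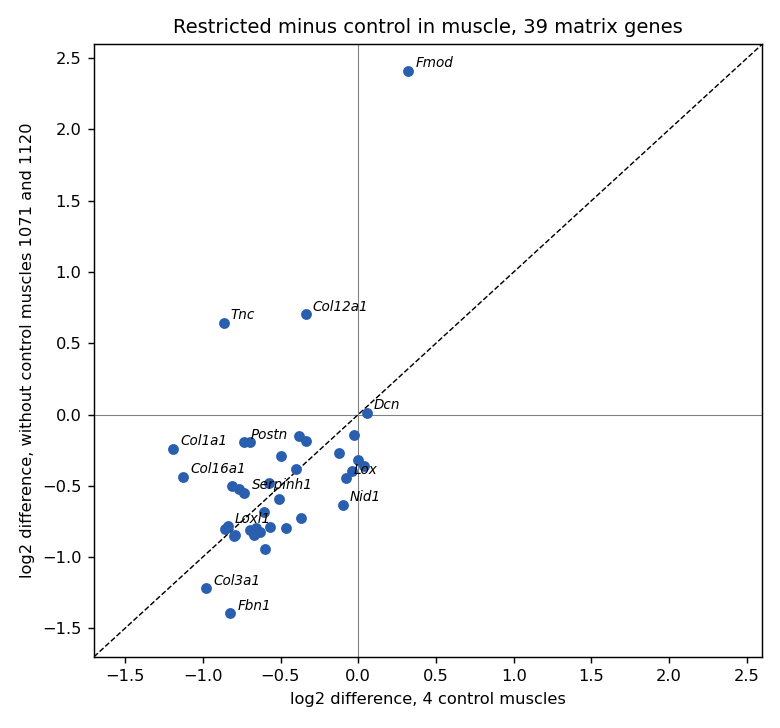
Log2 difference of restricted minus control muscle for 39 members with all 4 control muscles (horizontal axis) and without control muscles 1071 and 1120 (vertical axis), the dashed line marking equal values. Most members lie below 0 on both axes, while Tnc, Col12a1 and Fmod lie well above the line.

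No member passed in any single diet against control in muscle. The share of all genes that passed was 0.0% for soy, 0.00763% for fish and 0.0% for lard, and the 3 comparisons share the 4 control muscles. Medians were -0.48 for soy, -0.55 for fish and -0.68 for lard, with 10, 15 and 21 members lower at an unadjusted p under 0.05 (25.6%, 38.5% and 53.8%, against 9.53%, 9.99% and 10.4% of genes). Serpinh1 was at -0.66, -0.71 and -0.83 and Loxl1 at -0.85, -0.72 and -0.96 in soy, fish and lard. DESeq2 called 2, 1 and 6 members in the same order, and 1.85%, 3.01% and 2.43% of all genes. Among the 10 restricted muscles, soy muscle 1073 was the highest for 30 of 39 members, and lard muscle 1101 or 1102 the lowest for 30. The same soy muscle held the most fibroblast (2262 CPM), adipocyte (1570), smooth muscle (742) and nerve (520) marker reads of the restricted muscles, and the 2 lard muscles the fewest fibroblast marker reads (791 and 748). The part of cell makeup in that order was not tested.

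The fats were not told apart in muscle by these genes. No member and no gene passed for fish minus soy, lard minus soy or fish minus lard (0.0% in each), and at an unadjusted p under 0.05 there was 1 member on the lower side for fish minus soy (0.717% of genes), 2 for lard minus soy (1.66% of genes) and 0 for fish minus lard. DESeq2 called no member in any of these. Medians were -0.08, -0.20 and 0.16. Dcn was at 557, 885 and 567 CPM in soy, 536, 499.9 and 544 in fish and 377, 316, 339.6 and 519 in lard, which gave -0.69 ± 0.18 for lard minus soy (adjusted p = 1). Lox was at 8.38, 25.2 and 17.8 CPM in soy against 9.75, 9.93 and 6.84 in fish (-0.91 ± 0.39, adjusted p = 1) and 10.9, 6.73, 6.31 and 8.71 in lard (-0.94 ± 0.36). The next members by p were Timp2 for fish minus soy (-0.27 ± 0.21), Col16a1 for lard minus soy (-0.64 ± 0.37), and Dcn (0.35 ± 0.18), Postn (0.65 ± 0.38) and Lamb1 (0.23 ± 0.18) for fish minus lard. These intervals are wide, and a p above the threshold does not show that the diets act alike.

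The response of Postn was compared between the tissues. In muscle Postn was at 14.2, 16.1, 36.0 and 9.29 CPM in control, 11.9, 16.2 and 8.02 in soy, 14.6, 18.2 and 9.30 in fish and 10.2, 4.95, 9.49 and 9.35 in lard. Restricted minus control was -0.74 ± 0.28 there (adjusted p = 0.128), with overlap, and 0.77 in liver. The interaction, muscle response minus liver response, was -1.49 ± 0.35 (adjusted p = 0.0438), and Postn was the 1 of 39 members that passed, against 0.657% of 14150 genes. With the animal as a block, which pairs liver and muscle of the same mouse, it was -1.44 ± 0.34 and no longer passed (adjusted p = 0.148). The 3 mice with 1 tissue add nothing to the within-animal part. Without fish liver 1123 and control muscles 1071 and 1120 it was -0.93 ± 0.32 (adjusted p = 0.589), and the call held in 6 of 29 single removals, with values from -1.72 to -1.06 and adjusted p from 0.00671 to 0.157. Sparc (-0.89 ± 0.28, adjusted p = 0.105) and Mmp14 (-0.69 ± 0.23, adjusted p = 0.138) came next, and 33 of 39 members were below 0, against 54.6% of genes.

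Genes around the matrix members were counted from companion lists. In liver 1 gene of these lists passed for the 3 restricted diets: Lamb3, a laminin chain of epithelial basement membranes, fell by 1.51 ± 0.30 (adjusted p = 0.021), from 9.41 ± 3.37 CPM in control to 3.17 ± 1.09 CPM in restricted livers (SD), 1 of 17 other basement membrane genes tested. Over all 12788 genes 1.08% passed in this comparison, and 0.766% passed on the lower side. In the other liver lists no gene passed, and the genes of smallest p were Ccn2, a TGF-beta target (1.02 ± 0.40, adjusted p = 0.312), the protease Mmp15 (-0.44, adjusted p = 0.142), the integrin chain Itgb5 (-0.31, adjusted p = 0.294), the folding factor Crtap (0.45, adjusted p = 0.441), Emilin1 (-0.19, adjusted p = 0.550) and Prelp (-0.43, adjusted p = 0.234). In muscle, where 2.33% of all genes passed on the lower side, 3 of 25 genes of collagen folding and processing fell and 0 rose, with a median of -0.32. They were Plod3 (-0.52 ± 0.10), which hydroxylates collagen lysines, Pcolce (-0.78 ± 0.19), an enhancer of procollagen C-proteinase, and Adamts2 (-0.77 ± 0.20), the procollagen N-proteinase, at adjusted p of 0.0351 to 0.0496. Of 26 genes of the TGF-beta pathway, a main inducer of collagen genes, 4 fell and 0 rose, beside the same 2.33%. Among these were Tgfb1 itself (-1.14 ± 0.21, adjusted p = 0.0307), the co-receptor Eng (-0.49 ± 0.10) and Ltbp3 (-0.47 ± 0.11), which holds the latent ligand.

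Of 25 collagen and matrix receptors in muscle 4 fell and 0 rose, with a list median of 0.01, again beside 2.33% of all genes. These included the integrin chains Itgb5 (-0.59 ± 0.10, adjusted p = 0.0213) and Itgb3 (-2.005 ± 0.43), and Mrc2, which takes up collagen fragments (-0.97 ± 0.22). Of 20 other proteases and inhibitors 2 fell: Mmp9, a gelatinase abundant in neutrophils and osteoclasts (-3.55 ± 0.53, adjusted p = 0.0142), and Htra1 (-1.18 ± 0.19), of whose reads 53.8% were unique. Mmp9 was at 17.4 ± 17.1 CPM in control and 1.46 ± 0.99 CPM in restricted muscles, and Itgb3 at 6.49 ± 6.99 and 1.59 ± 0.65 CPM. Of the other lists, 1 of 12 elastic fibre partners (Efemp2, -0.86 ± 0.22), 1 of 19 other basement membrane genes (Npnt, -0.96 ± 0.19) and 2 of 26 other collagens and proteoglycans (Prelp and Dpt) fell and none rose, beside the same 2.33% of all genes. Their list medians were -0.38, 0.19 and -0.23 in that order, and only 5 of the 19 other basement membrane genes were below 0. Of Prelp reads 23.0% were unique. The 457 genes that passed in muscle were reduced to 2 without control muscles 1071 and 1120, whose bone and marrow markers are given above, and the part of those tissues in the companion calls was not tested.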

How the data were processed

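The authors extracted RNA with Trizol and prepared it with a TruSeq kit, per the labels. Per the submitters' processing notes FastQC and the GRCm38 build were used; aligner, counter and strandedness: not given in the sources used here. The authors' deposited tables hold raw counts of total exon reads and RPKM for 38124 genes, 36345 of which were matched to a GENCODE symbol. The 8 tables repeat the same libraries, and 0 of 116 repeated columns differed. Per the labels, control liver 1071 and fish muscle 1125 had been discarded by the authors for their clustering and RNA quality.

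From the counts, edgeR 4.0.16 in R 4.3.3 was run on each tissue with the 4 diets in one fit, and on both tissues together for comparisons between them, with filterByExpr (minimum count 10), TMM scaling, the quasi-likelihood test and Benjamini-Hochberg adjustment over all genes tested, at a threshold of 0.05. CPM printed per library is the exon read count scaled by the library's total, without TMM factors or a pseudocount. The SE is the log2 difference over the square root of F. The fit was tested on simulated data. Depth was 11315231 to 27106865 exon reads per library (median 15316165), and sampling noise is largest for members under 1 CPM. The lowest chi-square per degree of freedom among 39 pairs within groups was 10.3, above sampling noise; pairs between groups were not compared.

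Mouse numbers pair liver and muscle of the same animal for 13 mice, while 3 mice have 1 tissue. Alternatives were DESeq2 1.42.0 (size factors, and its Wald test), no filter, unique exon reads, leaving out each library and the libraries that stood apart, the animal as a block, and the library number in the labels as an added term. Members, lists and tests were chosen with earlier results of these data known. Genes named with values are those that passed, the 3 of smallest p in each comparison, the 3 of highest RPKM in each tissue, and in each companion list up to 3 that passed or the 1 of smallest p. Other genes were named after their values were seen.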

Additional observations from a re-analysis of the deposited data

Results flagged for a closer look

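In groups of 4 libraries, a library was marked when its gap to the nearest other library was a large share of the group's range (Dixon's test, which marks about 1 group in 20 by chance). Of 99 groups examined 11 were marked. In lard liver 1130 Col15a1 was highest at 8.84 CPM (4.56 to 5.22 in the others), and Loxl1 was highest at 1.15 CPM (0.484 to 0.550). In lard liver 1102 Col5a3 was highest at 41.0 CPM (21.0 to 24.3 in the others). Timp2 was lowest in soy liver 1159 at 11.6 CPM (14.7 to 15.2), and in muscle Col5a2 was lowest in control muscle 1071 at 21.2 CPM, the others reaching 34.4.

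Fmod was highest in lard muscle 1130 at 173 CPM (11.5 to 36.3 in the others) and Postn lowest in lard muscle 1101 at 4.95 CPM (9.35 to 10.2). Among summed marker lists, fibroblast markers were highest in soy liver 1073 at 74.3 CPM (42.5 to 46.4) and lowest in control muscle 1095 at 1217 CPM (1784 to 1883). Skeletal muscle markers were highest in fish liver 1123 at 3109 CPM (162 to 314), and tendon markers in control muscle 1120 at 242 CPM (88.3 to 107).

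The response of Postn to restriction differed between muscle and liver by -1.49 on the log2 scale, by the interaction test of edgeR (adjusted p = 0.0438). It did not pass with the animal as a block (-1.44, adjusted p = 0.148), nor without fish liver 1123 and control muscles 1071 and 1120 (-0.93, adjusted p = 0.589).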

How the results depend on the processing

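Among the members named by rule, in the comparisons that named them, no alternative turned a direction. Other members did turn. Without control muscles 1071 and 1120 Tnc and Col12a1 in muscle turned to 0.65 and 0.70. Lamc1 turned there from 0.03 to -0.36 and Nid2 from 0.001 to -0.32. Among other turns, Fn1 in soy minus control liver went from -0.29 to 0.24 without soy livers 1073 and 1159. For the counts of members that passed, 175 alternatives stayed within 1.5 times and 80 moved. Counts of members that passed changed as follows. With the DESeq2 Wald test the liver counts were 5 for soy minus control, 2 for lard minus control, 4 for fish minus soy and 1 for fish minus lard. In that order it called 6.77%, 2.14%, 6.36% and 1.28% of all genes, against 1.17%, 0.508%, 0.0938% and 0.203% with edgeR. The muscle counts were 11 for the 3 diets, 2 for soy, 1 for fish and 6 for lard against control. Beside them 9.67%, 1.85%, 3.01% and 2.43% of all genes were called. The interaction count was 2, beside 3.14% of all genes. Without the filter the soy liver count was 0, and it was 0 without soy livers 1073 and 1159. The fish liver count was 0 without fish liver 1123. The library number as a term gave 0 for soy, fish and lard livers against control and 0 for restricted muscle, where Serpinh1, Loxl1 and Col16a1 each had an adjusted p of 0.0542. Without control muscles 1071 and 1120 the muscle count was 0, and without these and fish liver 1123 the interaction count was 0. With the animal as a replicate block the interaction count was 0 (Postn at -1.44, adjusted p = 0.148), and the block left the count between tissues at 38.

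Leaving out each library in turn, liver counts ranged from 0 to 2 for the 3 diets, 0 to 8 for soy, 0 to 1 for fish and lard, 0 to 9 for fish minus soy, 0 to 2 for lard minus soy and 0 to 0 for fish minus lard. Muscle counts ranged from 0 to 8 for the 3 diets, 0 to 1 for lard and 0 to 0 for the other comparisons. They ranged from 37 to 38 between tissues and from 0 to 3 for the interaction. The share of all genes that passed under each removal is not set beside these ranges, and the cause of these changes was not tested. Depth limits members under 1 CPM, and with 3 or 4 mice per group small differences could not be told from the spread.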
